A study of Mus musculus with 4 samples.

Results

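The choroid plexus epithelium was followed through 10 genes known for high expression in it, namely Ttr, Kl, Folr1, Clic6, Aqp1, Otx2, Enpp2, Calml4, Sostdc1 and Tmem72, taken wherever the gene symbol of a transcript cluster equalled one of these names. Such a cluster pools the probes designed against a single transcribed locus. All 10 genes were found, each by a single cluster, out of 33793 clusters, of which 26688 had a gene symbol. The clusters held 19 to 29 probes each, and 0 of the 10 were marked in the file as able to cross-hybridize, against 14.7% of all clusters.

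This epithelium lines the fronds of tissue that hang in the brain ventricles. Its cells pump ions and water from blood into the cerebrospinal fluid, carry vitamins and hormones across the barrier, and secrete carrier proteins and growth factor antagonists into the fluid. In RNA from a whole brain these cells are a small compartment, so transcripts that they make in large amounts report on how much of that compartment an extract holds as well as on how much RNA each cell holds. Both readings give the same signal, and fewer cells and less RNA per cell cannot be told apart here.

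Total RNA came from whole brains of adult female mice of strain 129SV, and 4 Affymetrix whole-transcript arrays were measured, 2 from wild type and 2 from Adar2-/- mice. Adar2, also written Adarb1, encodes an enzyme that deaminates adenosine to inosine in double-stranded RNA. Per the study's methods both genotypes were siblings homozygous for the pre-edited Gria2 allele (Gria2 R/R), without which the knockout dies young, so the wild type is itself a carrier of an engineered glutamate receptor allele. The knockout is constitutive and not restricted to the choroid plexus. Values are normalized log2 signals, on which a difference of 1 is a 2-fold change.

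The 4 arrays had median log2 signals of 6.03 to 6.09. The targeted gene matched the labels, since Adarb1 read 10.50 and 10.45 in wild type but 9.16 and 8.96 in knockout, where each pair of values here and below gives replicate 1 first and replicate 2 second. Markers of neurons, glia and brain endothelium (12 of 12 genes found, among them Snap25, Gfap and Cldn5) read 7.34 to 13.16. As a measure of background, 4 clusters for genes of the Y chromosome, absent from females, read 3.49 to 4.40. The lowest reading of any choroid plexus gene was 6.28, so all 10 clusters lay above that level on every array. The file gives coordinates without a genome build, and all 10 clusters overlapped the RefSeq span of their gene in GRCm38.p6.

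Loss of ADAR2 went with no change in these genes that passed a test. None of the 10 reached an unadjusted limma p below 0.05, where 5.95% of all clusters did, and none reached an adjusted p below 0.05, where 0.0% did (0 of 33793 clusters in limma, with 2009 at an unadjusted p below 0.05). Of those 2009 clusters 1230 were higher and 779 lower in the knockout, a split that became 801 and 1229 after median centring. The fitted difference, knockout minus wild type, was above 0 for 8 genes and below 0 for 2, beside 50.8% and 47.7% of all clusters, and median centring turned Aqp1, Calml4 and Folr1 below 0, leaving 5 genes on each side. As deposited it ranged from -0.165 for Sostdc1 to 0.195 for Otx2. The median over the 10 genes was 0.05, beside 0.005 over all clusters. It was -0.065 without wild type replicate 1 and 0.13 without wild type replicate 2, so a single wild type array set its sign. The limma 95% intervals of the 10 genes reached down to a fold of 0.68, for Kl, and up to 1.44, for Folr1, while that of Tmem72 ran from 0.89 to 1.26. Changes inside a gene's own interval are not excluded by these arrays. The smallest two-sided p of an exact permutation test on 2 against 2 arrays is 0.333.

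The wild type arrays differed from each other in a shared direction over these genes. In 9 of the 10 genes wild type replicate 1 read below replicate 2, by at least 0.1 in each of the 9, while 49.3% of all clusters were lower in replicate 1 by any amount and 31.6% by at least 0.1. The gap of Enpp2 was -0.15 as deposited and -0.065 after quantile normalization, which takes it under 0.1. The median of replicate 1 minus replicate 2 was -0.19 over the 10 genes and 0 over all clusters. A gap of at least 0.5 was reached by 1 of the 10, Folr1, beside 2.42% of all clusters in this direction, 1.9% in the other and 4.32% in either, and a gap of at least 1 by 0 of 10, beside 0.269% in either direction. The log2 of the summed signal of the 10 genes, which Ttr and Enpp2 dominate, was 13.54 and 13.83 in wild type and 13.66 and 13.82 in knockout. In 8 of the 10 genes the genotype difference was smaller than the gap between the wild type arrays, which held for 57.5% of all clusters, so that count alone does not set these genes apart. With 1 array on each side this comparison has no replicate check, and it carries no test.

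**Figure D1:**
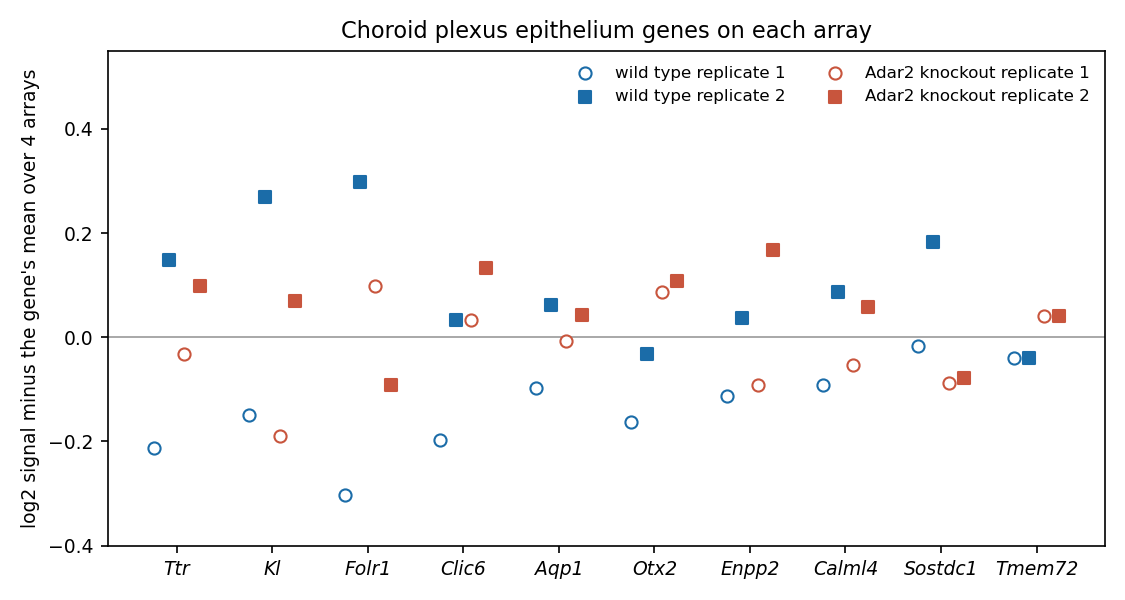
Log2 signal of each of the 10 choroid plexus genes on each array, drawn as the difference from that gene's mean over the 4 arrays (vertical axis, log2 units). Blue marks are wild type and red marks Adar2 knockout, with open circles for replicate 1 and filled squares for replicate 2. Wild type replicate 1 is the lowest of the 4 arrays for 7 genes, and wild type replicate 2 is the highest for 6.

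By array, wild type replicate 1 was the lowest of the 4, ties left out, for 7 of the 10 genes, beside 26.4% of all clusters, and the highest for 0, beside 24.2%. Wild type replicate 2 was the highest for 6 of 10, beside 22.4% of all clusters, and the lowest for 0, beside 22.2%. Knockout replicate 1 was the lowest for 2 (21.6% of all clusters) and the highest for 0 (24.9%), and knockout replicate 2 was the highest for 3 (24.5%) and the lowest for 0 (25.9%). Within the knockout, replicate 1 read below replicate 2 for 8 of 10 genes, beside 46.6% of all clusters, but the gaps were small, with a median of -0.075 and a range of -0.26 to 0.19. None reached 0.5, beside 5.05% of all clusters, or 1, beside 0.447%. Replicate 1 was the lower array in both genotypes for 8 of the 10 genes, beside 23.6% of all clusters. The wild type gap exceeded the knockout gap in 8 of the 10 genes, beside 47.7% of all clusters.

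Of the secreted proteins, transthyretin (Ttr, chromosome 18, 20665250 to 20674326) carries thyroid hormone and retinol-binding protein in the cerebrospinal fluid. On the log2 scale it read 12.76 and 13.12 in wild type and 12.94 and 13.07 in knockout. The wild type arrays were the lowest and the highest of the 4, and both knockout arrays lay between them. The fitted difference was 0.065 (SE 0.15, limma p 0.682, adjusted p 0.97), which is a fold of 1.05. The gap inside the wild type was wider, at 1.28-fold, and 10.9% of all clusters had a gap at least as large. Without wild type replicate 1 the genotype difference turned to -0.115.

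Autotaxin (Enpp2, chromosome 15, 54838898 to 54920146) is the secreted enzyme that makes lysophosphatidic acid. Its cluster read 11.80 and 11.95 in wild type and 11.82 and 12.08 in knockout. The groups overlapped, and this was the 1 gene of the 10 whose knockout arrays lay further apart than its wild type arrays. The knockout minus wild type difference was 0.075 (SE 0.13, limma p 0.596, adjusted p 0.959). Enpp2 is also a known transcript of oligodendrocytes, whose markers are described with the other cell types.

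Sostdc1 (chromosome 12, 36314169 to 36318452) encodes a secreted antagonist of BMP and Wnt signals. It read 8.19 and 8.39 in wild type and 8.12 and 8.13 in knockout. Both knockout readings lay below both wild type readings, the only such gene among the 10, where 16.5% of all clusters were ordered in this way. The difference of -0.165 was smaller than the 0.20 between the wild type arrays and did not pass (SE 0.12, limma p 0.209, adjusted p 0.872, exact permutation p 0.333). The knockout arrays differed by 0.01, and 97.6% of all clusters had a knockout gap at least as large.

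The transport proteins included the gene with the widest gap. Folr1 (chromosome 7, 101858331 to 101870788), the high-affinity folate receptor that brings folate into the cerebrospinal fluid, read 6.65 and 7.25 in wild type and 7.05 and 6.86 in knockout. Wild type replicate 2 was 1.52-fold above replicate 1, and 2.44% of all clusters had a gap of that size or more. Knockout replicate 1 lay above replicate 2, by 0.19, the reverse of the wild type order and the only member whose knockout arrays were ordered in that way. The genotype means nearly coincided, with a difference of 0.005 (SE 0.21, limma p 0.982, adjusted p 0.997). That value moved from -0.295 without wild type replicate 1 to 0.305 without wild type replicate 2, so its place near 0 rested on the pair.

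Aqp1 (chromosome 6, 55336299 to 55348555), the water channel of the apical membrane, read 6.28 and 6.44 in wild type and 6.37 and 6.42 in knockout. Clic6 (chromosome 16, 92485736 to 92541243), a member of the chloride intracellular channel family, read 7.13 and 7.36 in wild type and 7.36 and 7.46 in knockout. Both genes were lowest in wild type replicate 1. For Aqp1 the knockout readings lay inside the wild type range, and for Clic6 knockout replicate 1 equalled wild type replicate 2 while knockout replicate 2 lay above it. The genotype differences were 0.035 (SE 0.11) for Aqp1 and 0.165 (SE 0.12) for Clic6, with limma p-values of 0.766 and 0.236.

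Klotho (Kl, chromosome 5, 150952607 to 150993817) is a membrane co-receptor for the hormone FGF23 that is also shed into the fluid. It read 8.80 and 9.22 in wild type and 8.76 and 9.02 in knockout. Replicate 1 was the lower array in each genotype, by 0.42 and 0.26, so the replicates of each genotype lay further apart than the genotype means. The difference was -0.12 (SE 0.18, limma p 0.523, adjusted p 0.946), and it was -0.33 without wild type replicate 1 and 0.09 without wild type replicate 2.

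Otx2 (chromosome 14, 48657679 to 48667644) encodes a homeodomain transcription factor needed for the choroid plexus to form and persist. It read 7.27 and 7.40 in wild type and 7.52 and 7.54 in knockout. Both knockout arrays lay above both wild type arrays, an order shared with Tmem72 among the 10 genes and with 17.7% of all clusters. With Sostdc1, 3 of the 10 genes thus had genotypes that did not overlap, beside 34.1% of all clusters. This was the largest of the 10 genotype differences, at 0.195 (SE 0.11), or 1.14-fold, and it did not pass (limma p 0.123, adjusted p 0.848, exact permutation p 0.333). It stayed between 0.13 and 0.26 when single arrays were left out.

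Calml4 (chromosome 9, 62858104 to 62875918), which encodes a calmodulin-like protein, read 6.42 and 6.60 in wild type and 6.46 and 6.57 in knockout. Both knockout readings lay inside the wild type range, and the genotype difference was 0.005 (SE 0.12, limma p 0.968, adjusted p 0.993). Tmem72 (chromosome 6, 116692630 to 116716913), which encodes a transmembrane protein, read 6.43 on both wild type arrays and 6.51 on both knockout arrays. It was the 1 gene without any gap between replicates at the 2 decimals deposited, and its difference of 0.08 (SE 0.10, limma p 0.459, adjusted p 0.935) takes its error from the spread that limma borrows from all clusters.

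**Figure D2:**
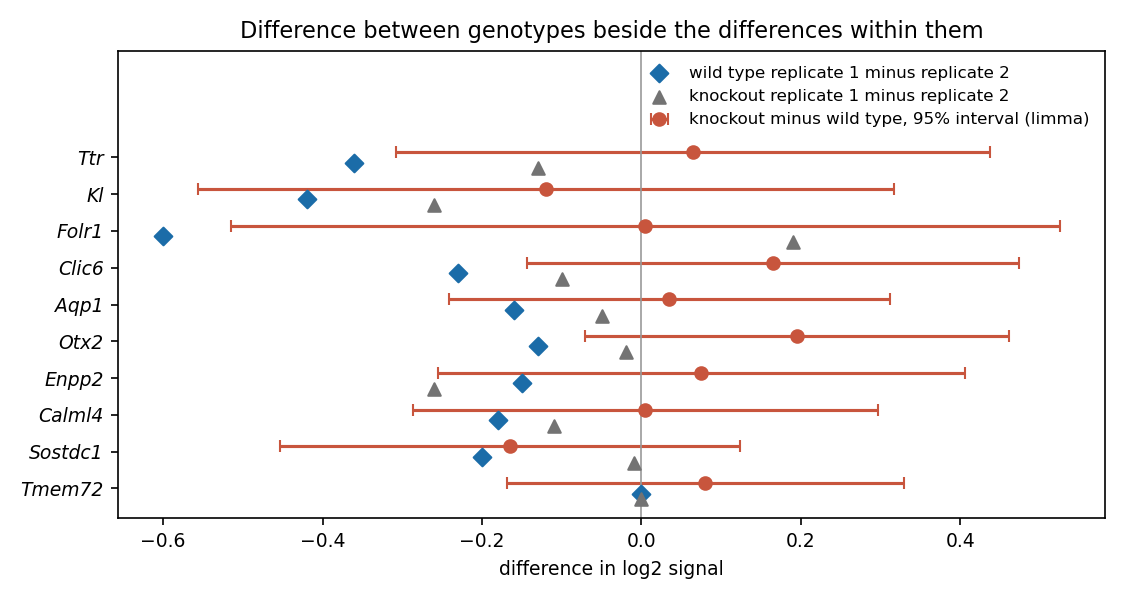
Differences in log2 signal (horizontal axis) for each of the 10 genes. Red circles with bars give knockout minus wild type with the limma 95% interval, blue diamonds wild type replicate 1 minus replicate 2, and grey triangles knockout replicate 1 minus replicate 2. All 10 intervals include 0, and the blue diamonds lie below 0 for 9 genes and at 0 for Tmem72.

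Upstream sequence was read for the members that the RefSeq promoter table holds, which were 5 of the 10 genes with 8 start sites, 4 of them of Otx2. OTX2 and related bicoid-type homeodomain proteins bind the core TAATCC, so these 6 letters were searched on both strands (GGATTA on the other strand) from 250 bases before to 50 after each start. They were present in 1 of the 8 windows, at an internal start site of Otx2 itself, and in 7.06% of the 32851 windows of all genes. The match began at position -211 relative to that start. The 250 bases upstream of 3 starts are given 5′ to 3′ on the strand of the gene, in GRCm38.p6, with the match in capitals. They are the Otx2 start with the match (chr14:48665110-48665359, minus strand), Kl as the gene with the widest wild type gap among those 5 (chr5:150952357-150952606, plus strand) and Tmem72 as the gene with none (chr6:116716759-116717008, minus strand).
Otx2: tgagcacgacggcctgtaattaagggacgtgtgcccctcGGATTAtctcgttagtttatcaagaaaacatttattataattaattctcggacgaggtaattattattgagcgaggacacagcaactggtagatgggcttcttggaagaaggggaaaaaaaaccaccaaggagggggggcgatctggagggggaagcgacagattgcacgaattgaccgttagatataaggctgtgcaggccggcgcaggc
Kl: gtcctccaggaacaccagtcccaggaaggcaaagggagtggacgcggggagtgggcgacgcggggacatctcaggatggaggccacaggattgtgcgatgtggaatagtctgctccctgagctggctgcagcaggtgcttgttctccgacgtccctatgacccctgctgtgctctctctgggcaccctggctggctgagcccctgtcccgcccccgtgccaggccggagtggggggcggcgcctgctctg
Tmem72: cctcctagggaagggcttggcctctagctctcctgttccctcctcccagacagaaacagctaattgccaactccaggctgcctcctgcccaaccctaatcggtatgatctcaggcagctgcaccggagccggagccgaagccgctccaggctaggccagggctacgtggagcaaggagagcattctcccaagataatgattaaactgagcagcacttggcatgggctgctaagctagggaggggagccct
Neither the Kl nor the Tmem72 window holds these letters. This describes the letters in the windows searched and nothing of what binds there.

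To describe the order of the arrays beyond the 10 genes, further genes of the epithelium were read by role. Of 65 such genes 61 were found, in 64 clusters. Like the 10 genes, they were chosen with earlier results of these data known, so their counts are no independent check. An unadjusted limma p below 0.05 was reached by 0 of the 64 in the upward and 2 in the downward direction, beside 3.64% and 2.31% of all clusters, and the median genotype difference was -0.0025. Wild type replicate 1 lay below replicate 2 in 48 of the 64 and above it in 16, beside 49.3% of all clusters below, with a median gap of -0.155. In the knockout the median gap of the same 64 clusters was 0.005. Their log2 summed signal, led by the brightest genes, was 14.90 and 14.92 in wild type and 14.89 and 14.87 in knockout. The gap seen gene by gene thus did not appear in the sum. Some of these genes, among them Slc4a10 and Htr2c, are also made by neurons, so the sum does not measure the epithelium alone.

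Among 17 clusters for ion and water transport, 12 were lower in wild type replicate 1 and 5 higher, and the median gap was -0.14. Kcne2, a potassium channel subunit of the apical membrane, had the widest gap with 5.34 and 5.86 in wild type and 5.55 and 5.68 in knockout. Slc39a4, a zinc transporter, read 5.78 and 6.24 in wild type and 5.89 and 6.10 in knockout. For both genes the 2 knockout arrays lay between the wild type arrays, as they did for Ttr. The bicarbonate transporter Slc4a10, which neurons also make and which was picked after its values were seen, had the opposite gap, at 10.81 and 10.39. The genotype differences of the 17 clusters ran from -0.27 to 0.24, and 0 had a limma p below 0.05.

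Of the secreted and matrix proteins, 12 of 15 clusters were lower in wild type replicate 1, with a median gap of -0.16. Wfdc2, a secreted protein of the whey acidic protein family, read 5.19 and 5.77 in wild type and 5.49 and 5.64 in knockout. Coagulation factor V (F5) read 6.15 and 6.64 in wild type, with 6.16 and 6.14 in knockout at the lower of the wild type levels. None of the 15 clusters had a limma p below 0.05. Receptors and other membrane proteins had 6 of 9 clusters lower in wild type replicate 1, with a median of -0.12. The serotonin receptor gene Htr2c, which neurons also express, read 8.63 and 8.90 in wild type and 8.48 and 8.80 in knockout. Slco1a5, an organic anion transporter, read 3.75 to 4.03, inside the range of the Y-linked clusters, so that no level can be given for it.

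Junction and keratin genes had 7 of 10 clusters lower in wild type replicate 1, with a median of -0.165. Claudin 1 (Cldn1) read 6.98 and 7.29 in wild type and 7.27 and 7.18 in knockout. Krt18, an epithelial keratin, had a cluster on the strand of the gene with a genotype difference of 0.315 and another on the opposite strand with -0.295, and neither passed (limma p 0.0533 and 0.0696). All 7 clusters of developmental regulators were lower in wild type replicate 1, with a median gap of -0.23. Lmx1a, a roof plate homeodomain factor, read 5.24 and 5.69 in wild type and 5.92 and 5.40 in knockout, and its relative Lmx1b read 6.93 and 7.17 in wild type and 7.18 and 7.21 in knockout. Msx2, a homeodomain factor of the dorsal midline, read 5.95 and 6.19 in wild type and 5.75 and 5.71 in knockout. Its difference of -0.34 had a limma p of 0.0345 and an adjusted p of 0.834.

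The 6 remaining clusters had a median gap of -0.095. Cox8b, a cytochrome oxidase subunit, read 6.33 and 6.73 in wild type and 6.25 and 6.60 in knockout. Vat1l had 2 clusters on opposite strands. The minus-strand cluster had a knockout minus wild type difference of -0.395 at an unadjusted limma p of 0.0365 (adjusted p 0.834), while the plus-strand cluster differed by -0.05 (limma p 0.666). Both Vat1l clusters were higher, not lower, in wild type replicate 1.

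**Figure D3:**
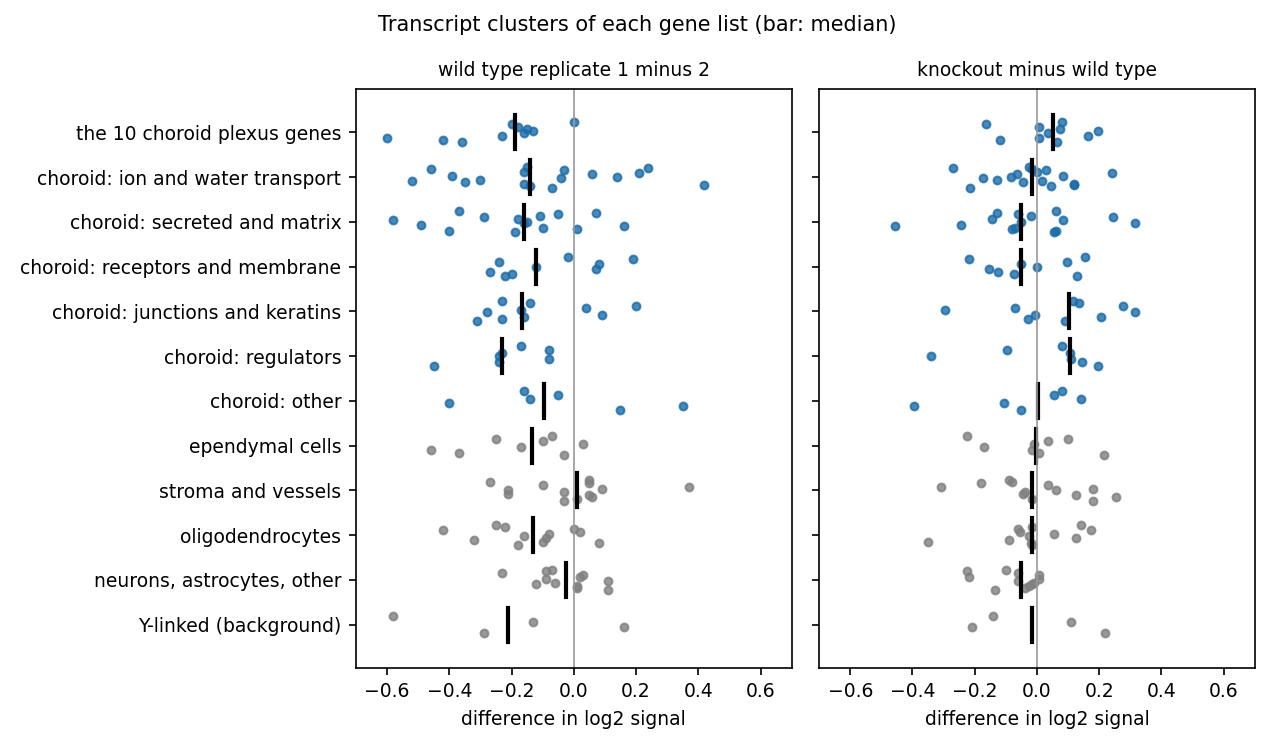
Differences in log2 signal (horizontal axis) of the transcript clusters in the lists named on the vertical axis, 1 point a cluster, with a black bar at the list's median. The left panel shows wild type replicate 1 minus replicate 2 and the right panel knockout minus wild type. On the left, the lists of choroid plexus epithelium (blue) have medians of -0.23 to -0.095. Of the grey lists, the medians are -0.135 for ependymal cells, -0.13 for oligodendrocytes, -0.21 for Y-linked genes, -0.025 for general brain markers and 0.01 for stroma and vessels.

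Markers of neighbouring cells moved with this order to different degrees. Ependymal cells line the ventricles beside the choroid plexus, and 7 of 13 marker genes were found in 8 clusters. Wild type replicate 1 was lower in 7 of the 8, with a median gap of -0.135 and a log2 summed level of 9.04 and 9.20 in wild type and 9.01 and 9.33 in knockout. Tmem212 read 6.42 and 6.79 in wild type and 6.24 and 6.98 in knockout, and Dynlrb2, a dynein light chain of motile cilia, read 5.49 and 5.95 in wild type and 5.67 and 5.74 in knockout. For Tmem212 the knockout arrays were thus further apart, by 0.74, than the wild type arrays.

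Oligodendrocyte markers, which bear on Enpp2, were lower in wild type replicate 1 for 9 of 12 clusters, with a median gap of -0.13. Their log2 summed level was 14.18 and 14.32 in wild type and 14.20 and 14.24 in knockout. Ermn and Mag had the widest wild type gaps, with 8.41 against 8.83 and 10.51 against 10.83. Mog, a myelin surface glycoprotein, was 0.35 lower in the knockout at an unadjusted limma p of 0.0258 (adjusted p 0.834), with 10.11 and 10.21 in wild type and 9.90 and 9.72 in knockout. The Y-linked clusters, which sit at background, had a median gap of -0.21 with 3 of 4 lower in wild type replicate 1, so that a gap of the size seen in the choroid plexus genes also occurred at background. The part of ependymal and oligodendrocyte RNA, or of background, in the gap was not tested.

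Markers of stroma and fenestrated vessels, a list that is not limited to the choroid plexus, did not share the order. Of their 13 clusters 6 were lower and 7 higher in wild type replicate 1, with a median of 0.01. Their log2 summed level was 12.23 on both wild type arrays and 12.21 and 12.22 in knockout. Aldh1a2, a retinoic acid synthesising enzyme of the meninges, ran the other way at 7.41 and 7.04 in wild type and 7.01 and 6.82 in knockout, and Slc13a3 read 9.08 and 9.35 in wild type and 9.06 and 9.21 in knockout. The general brain markers divided evenly, 6 lower and 6 higher, with a median of -0.025.

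Markers of the pineal gland, which also depends on Otx2 to form, had a median wild type gap of 0.015 over 8 clusters and read 3.26 to 7.80. Crx read 4.95 and 4.59 in wild type and 4.74 and 5.26 in knockout, and Sag read 6.06 and 5.80 in wild type and 6.04 and 6.05 in knockout. Chrna3, also a gene of habenular neurons, was 0.31 lower in the knockout (limma p 0.0294, adjusted p 0.834). Of 15 pituitary clusters 3 were higher in the knockout at an unadjusted limma p below 0.05 and none lower, beside 3.64% and 2.31% of all clusters. None of the 3 passed after adjustment, with limma adjusted p-values of 0.77 for Prl, 0.829 for Gh and 0.834 for Pomc. Prl read 6.55 and 4.99 in wild type and 10.11 and 9.66 in knockout, Gh read 6.30 and 5.68 in wild type and 9.95 and 8.36 in knockout, and Pomc read 5.36 and 5.09 in wild type and 5.97 and 5.50 in knockout. In these 3 pituitary genes wild type replicate 1 was the higher wild type array, the reverse of the choroid plexus genes. Blood genes (5 of 7 found, in 6 clusters) were mostly higher in wild type replicate 1, in 5 of 6 clusters, with a median gap of 0.245.

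**Figure D4:**
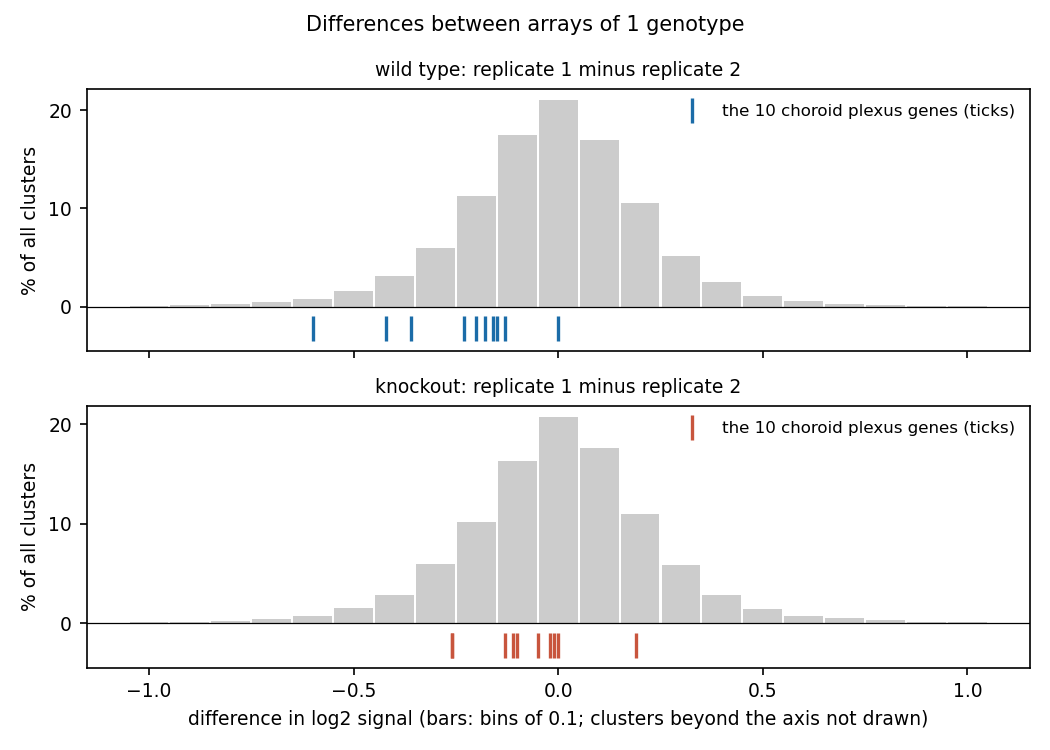
Distribution of replicate 1 minus replicate 2 in log2 signal (horizontal axis) over all 33793 clusters, as the percentage of clusters in each bin of 0.1 (vertical axis), for wild type (top) and knockout (bottom). Ticks under the bars mark the 10 choroid plexus genes, of which Kl and Enpp2 share a tick at -0.26 in the knockout. In wild type 9 ticks lie to the left of 0, from -0.60 to -0.13.

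Finally, the clusters with the most similar pattern were sought by the Euclidean distance between their 4 values, centred on their own mean, and the mean centred profile of the 10 genes. That profile was -0.1385, 0.1045, -0.0205 and 0.0545 for wild type replicates 1 and 2 and knockout replicates 1 and 2. The 10 genes themselves lay at distances of 0.0586 (Calml4) to 0.316 (Folr1), and the median over 24231 other clusters with a symbol and without cross-hybridizing probes was 0.272. The 6 nearest were Nek5 (0.00574), 9330179D12Rik (0.00854), Prelid2 (0.0109), Chchd6 (0.0117), Dhcr7 (0.0117) and Gm6040 (0.0124). All 6 lay nearer to the mean profile than any of the 10 genes did. With 4 values a cluster, nearness of this kind is a description only.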

How the data were processed

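Total RNA of whole brain from 2 wild type and 2 Adar2-/- mice was prepared at a core facility with the Ambion WT kit and measured on Affymetrix mouse arrays. The authors deposited 1 normalized log2 signal per transcript cluster and array, to 2 decimals, for 33793 clusters. The submitters' processing notes name Affymetrix Expression Console and RMA, and no version or genome build. RMA corrects background, equalises the arrays' distributions and summarises probes, which can shrink differences shared by many genes and compresses low signals. The deposited table also holds the authors' genotype means, log ratios, fold changes and p-values, which were not used.

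Groups came from the sample titles. Knockout and wild type were compared over all clusters by a moderated linear model on genotype alone (limma 3.58.1, R 4.3.3, functions lmFit and eBayes, two-sided, with Benjamini-Hochberg adjustment over all clusters), with no filter. The prior SD was 0.125 on 3.79 degrees of freedom. Arrays of 1 genotype were compared by their difference, without a test. The number of arrays limits the precision. Per the study's methods the mice were siblings, but which mouse gave which array is not given in the sources used here, so p-values measure the spread between these samples.

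The members and lists were chosen with earlier results of these data known. The lists covered 6 roles in the epithelium, ependymal cells, stroma and vessels, oligodendrocytes, pineal gland, pituitary, blood, general brain markers and Y-linked genes. Named were every member, Adarb1, list genes with an unadjusted p below 0.05, the 2 genes per list with the widest wild type gap and the 6 clusters nearest in profile. General brain, blood and Y-linked genes are given as lists. Calculations were tested on simulated data. Summaries used pandas 2.3.3 under Python 3.11.15, and figures matplotlib 3.10.9. The alternatives were 3 further normalizations (cyclic loess, quantile, median centring), a restriction to clusters above the median signal, eBayes with a trend or made robust, a block for replicate number, each array left out in turn, exclusion of cross-hybridizing clusters, and 1 value per gene.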

Additional observations from a re-analysis of the deposited data

How the results depend on the processing

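None of the 10 genes reached an unadjusted limma p below 0.05 in any alternative run, and the count of clusters past an adjusted p of 0.05 was 0 in all of them. With 2 arrays a genotype, differences near 0 have no settled sign. The fitted difference turned below 0 after median centring for Aqp1 (-0.005), Calml4 (-0.035) and Folr1 (-0.035), after quantile normalization for Calml4 (-0.0125) and Folr1 (-0.0044), and after cyclic loess for Calml4 (-0.0092). Median centring lowers every difference, as it moves the median of all clusters to -0.035. With single arrays left out, values ran from -0.115 to 0.245 for Ttr, -0.33 to 0.09 for Kl, -0.295 to 0.305 for Folr1, -0.045 to 0.115 for Aqp1, -0.055 to 0.205 for Enpp2 and -0.085 to 0.095 for Calml4, while Clic6, Otx2, Sostdc1 and Tmem72 kept their sign. The median of the 10 genes ran from -0.065 to 0.1325 in these fits, which take the spread of a genotype left with 1 array from the other genotype.

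The median gap between the wild type arrays was -0.16 to -0.19 under the 3 normalizations, and single gaps moved by less than the prior SD of 0.125 with no change of direction in the 9 genes, while Tmem72, at 0 as deposited, read up to 0.03. For Enpp2 the move was over 1.5 times, from -0.15 to -0.065 after quantile normalization, so that 8 and not 9 of the 10 genes then had a gap of at least 0.1. The 2009 clusters with an unadjusted p below 0.05 became 989 among clusters above the median signal, where fewer were tested, and 1221 to 1801 with single arrays left out. The lowest of these was without wild type replicate 1, and the cause was not tested. Equal replicate numbers were not taken as pairs, because the sources do not say which mouse gave which array. The replicate gaps of both genotypes correlated at a Pearson's r of 0.0516 over 33793 clusters, which are not independent, and of -0.224 over the 10 genes. These values cannot show whether arrays were paired. A replicate block left 0 clusters past the adjusted threshold, 1693 past the unadjusted one and 0 of the 10 genes past either. Detection calls were not used here, so the Y-linked clusters are the only measure of background.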

Other observations

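Outside the naming rule, 3 further genes of the epithelium were picked after their values were seen. Lbp, a lipopolysaccharide-binding protein, read 8.79 and 8.63 in wild type and 8.83 in knockout replicate 1, but 7.68 in knockout replicate 2, the widest knockout gap (1.15) among the 64 further clusters. Kcnj13, the inwardly rectifying potassium channel of the apical membrane, followed Kl closely, with 8.77 and 9.12 in wild type and 8.77 and 9.03 in knockout. Prlr, the prolactin receptor, read 5.33 and 5.55 in wild type and 5.42 and 5.72 in knockout, a difference of 0.13 (limma p 0.417). These readings lay below the arrays' median signals of 6.03 to 6.09, so the cluster may report little Prlr. Prl itself read 6.55 and 4.99 in wild type and 10.11 and 9.66 in knockout, and a link between the 2 genes was not tested.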
